A study of Homo sapiens with 16 samples.

Results

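PDE4B, CYP24A1, HS3ST1, MALL, LTBR, CLCF1, ADGRF1, ZBTB2 and MKX are 9 genes of the 20612 measured in HCT116 cells, selected on their RPKM, since their RNA was much lower with Entinostat than with the vehicle DMSO in one or both genotypes of the line. The contrast of Entinostat with DMSO is described below without a test. The tests use the libraries with Nutlin-3A and with the combination, which are not part of that contrast. The genes were chosen with earlier results of all 16 libraries known, so these tests are not independent of the choice. HCT116 is a human colorectal cancer cell line. It was used as p53+/+ cells and as isogenic p53-/- cells that lack the tumor suppressor p53, and the labels do not say how the p53-/- cells were made or whether they are a single clone. Both genotypes received DMSO for 8 hours, with 5 µM Nutlin-3A, with 2.5 µM Entinostat, or with Nutlin-3A and Entinostat together (the combination), and polyadenylated RNA was sequenced. There were 8 groups of 2 replicates and so 16 libraries, and every group shared the growth medium. The labels do not say whether replicates were separate cultures, so p values measure only how far these samples spread, which may be technical error.

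Entinostat inhibits class I histone deacetylases, enzymes that remove acetyl groups from histone tails and work in corepressor complexes. Their inhibitors are known for raising the RNA of silenced genes, and many active genes lose RNA as well, often those that depend on strong enhancers. Nutlin-3A blocks the binding of p53 to its ubiquitin ligase MDM2, so that p53 accumulates and activates its target genes. The genes described here have separate roles. CLCF1 encodes a secreted cytokine, LTBR and ADGRF1 encode receptors, PDE4B breaks down the messenger cyclic AMP, CYP24A1 and HS3ST1 are enzymes of vitamin D and heparan sulfate metabolism, MALL is a membrane protein, and ZBTB2 and MKX encode transcription factors.

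Values are RPKM, which scale the reads of a gene by its length and by the size of the library, and a library held 45902800 to 55507300 alignments. CDKN1A, a p53 target that encodes the kinase inhibitor p21, matched the labels. It measured 89.2 and 66.1 RPKM with DMSO and 1059 and 763 with Nutlin-3A in p53+/+ cells, against 23.7 and 14.1 and then 26.9 and 16.7 in p53-/- cells. Of 7 epithelial markers EPCAM (126 to 191 RPKM), KRT8, KRT18, KRT19, CDH1 and CDX2 were present in every library, whereas CEACAM5 stayed at or below 0.0475 RPKM. Their summed level was 4010 to 4641 RPKM in p53+/+ cells with the combination and 1717 to 2863 in the other groups. The summed level of 4 leukocyte markers was at most 0.305 RPKM and ALB, the hepatocyte marker, was at most 0.168. Of 4 fibroblast markers the summed level was 2.05 to 2.78 RPKM in libraries without Entinostat and 3.74 to 5.93 with it. Nearly all of it was COL1A1, and COL1A2 (at most 0.0217) and COL3A1 (at most 0.0434) were at or near 0 throughout. The summed level of 3 endothelial markers was 0.0218 to 0.0864 RPKM without Entinostat and 0.0781 to 0.281 with it, with PECAM1 at most 0.0187. These are bulk measurements, in which fewer cells expressing a gene and less RNA per cell cannot be told apart.

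Promoter sequences of 7 of the 9 genes were matched by symbol in a RefSeq table of GRCh38.p14, with 13 start sites in all, 6 of them for PDE4B and 2 for MALL. CYP24A1 and CLCF1 have no entry there. The 4 windows below hold the 250 bases before the start of the 3 genes whose level differed most between genotypes and of LTBR, which differed least between them under DMSO. They show how unlike the promoters are. Each is written 5′ to 3′ along the strand of the gene, with capitals marking CpG, the dinucleotide that CpG islands are rich in.
ADGRF1 (chr6:47042333-47042582, minus strand): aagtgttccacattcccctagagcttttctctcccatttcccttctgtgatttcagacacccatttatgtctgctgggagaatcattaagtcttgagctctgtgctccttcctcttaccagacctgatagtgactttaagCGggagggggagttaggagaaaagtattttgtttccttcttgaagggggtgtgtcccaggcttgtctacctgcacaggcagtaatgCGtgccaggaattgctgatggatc
MKX (chr10:27745820-27746069, minus strand): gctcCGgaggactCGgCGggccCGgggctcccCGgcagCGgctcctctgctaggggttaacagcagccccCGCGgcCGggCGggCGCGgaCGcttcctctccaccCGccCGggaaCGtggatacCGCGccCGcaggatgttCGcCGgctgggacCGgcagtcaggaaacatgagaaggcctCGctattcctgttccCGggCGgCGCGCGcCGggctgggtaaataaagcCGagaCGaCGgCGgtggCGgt
ZBTB2 (chr6:151391560-151391809, minus strand): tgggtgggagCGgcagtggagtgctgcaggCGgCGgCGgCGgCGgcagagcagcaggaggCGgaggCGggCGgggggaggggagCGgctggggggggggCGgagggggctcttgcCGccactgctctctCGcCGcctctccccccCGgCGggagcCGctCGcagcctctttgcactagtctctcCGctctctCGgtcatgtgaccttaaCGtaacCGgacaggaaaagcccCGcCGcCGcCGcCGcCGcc
LTBR (chr12:6383912-6384161, plus strand): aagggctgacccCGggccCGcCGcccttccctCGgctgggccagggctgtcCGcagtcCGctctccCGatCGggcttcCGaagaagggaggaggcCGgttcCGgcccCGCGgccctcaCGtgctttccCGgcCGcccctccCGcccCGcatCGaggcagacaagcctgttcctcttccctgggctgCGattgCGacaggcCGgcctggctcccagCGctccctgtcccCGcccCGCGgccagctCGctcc
The window of ADGRF1 holds 2 CpG, that of LTBR 27, that of ZBTB2 28 and that of MKX 34, where the median over all 35116 promoters in the table is 11 (quartiles 3 and 23). HS3ST1 has 25, MALL 0 and 18 at its 2 starts, and PDE4B 17, 16, 0, 1, 4 and 1 at its 6 starts. So genes with CpG-rich and with CpG-poor starts are both among the 9. Short motifs were searched on both strands. The GC box GGGCGG was in 7 of the 13 windows, against 42.6% of all windows, and the E-box CANNTG in 9 of 13, against 61.8%. Neither TATAAA (10.7% of all windows), TGANTCA (6.57%) nor TGACGT (7.1%) was in any of the 13. AGGTCA (12.1%), AGTTCA (8.8%) and AGGTGA (13.7%) were in 1 window each. Such matches describe the letters of these windows only, and a match of one motif may overlap that of another.

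**Figure D1:**
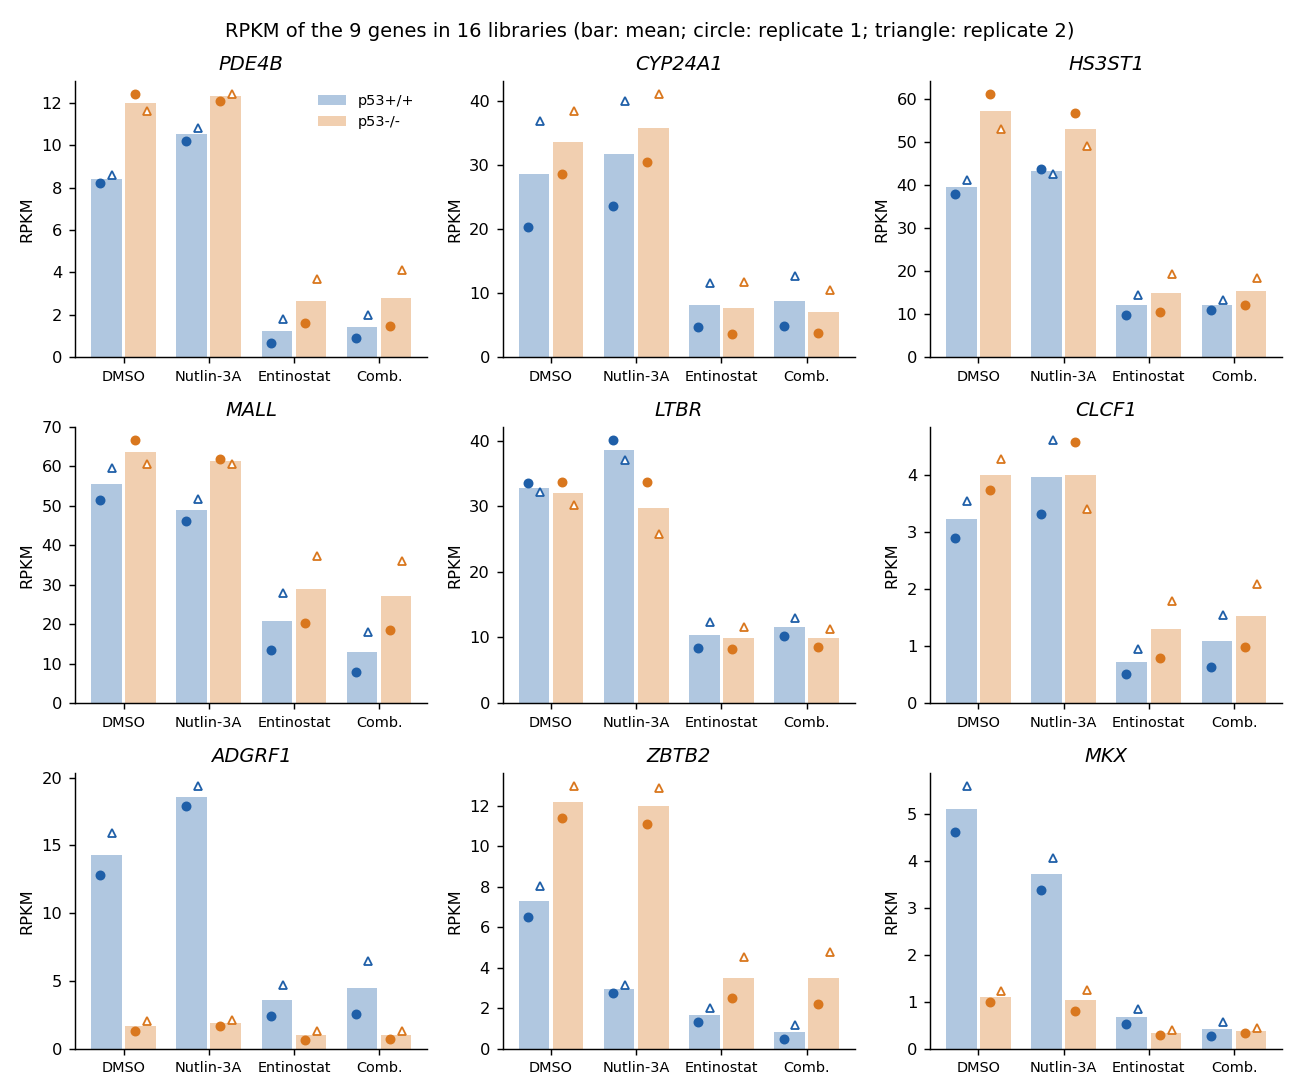
RPKM (vertical axis, from 0) of each of the 9 genes in the 16 libraries by treatment, p53+/+ in blue and p53-/- in orange. Bars are means of 2 replicates, circles replicate 1 and triangles replicate 2. For all 9 genes the libraries with Entinostat or the combination (Comb.) lie below those with DMSO or Nutlin-3A of the same genotype, and ZBTB2 in p53+/+ cells also has low Nutlin-3A libraries (2.74 and 3.16 RPKM). The share of all genes separated in this way was not counted.

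With Entinostat alone, the contrast that chose them, all 9 genes were lower in p53+/+ cells, from 2.69-fold (MALL) to 7.48-fold (MKX), and in p53-/- cells they were lower by 1.69-fold (ADGRF1) to 4.5-fold (PDE4B). No Entinostat library of any of the 9 overlapped the DMSO libraries of its genotype, which also follows from that choice. The share of all genes separated in this way was not counted. On the scale used throughout, log2(RPKM + 0.5), 84 of 12466 genes (0.674%) were lower by 1 or more in p53+/+ cells and 53 (0.425%) in p53-/- cells. All 9 genes were among the former and 7 among the latter, which follows from how they were chosen. Among 11513 genes with a mean of at least 1 RPKM, 8 of the 9 were in the 15 largest falls of p53+/+ cells. There they stood beside EREG, HOXB8, HOXA10-AS, PCDH7, JADE2, HIST1H4J and HMGA2, which are no members, and MALL ranked 19. In p53-/- cells 6 of the 9 were in the top 15, and MALL ranked 20, MKX 65 and ADGRF1 582. The list is therefore not a complete set of the largest falls. HOXB8 (3.65 against 16 RPKM in p53+/+ cells) lies among the members and LIF (3.12 against 8.32 in p53-/- cells) ranked ahead of MALL.

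Whether Entinostat also lowered these genes in cells that received Nutlin-3A for the same 8 hours was read from the libraries with Nutlin-3A and with the combination. They share the drug, its dose and the replicate numbers with the libraries of the contrast that chose the genes. Results of these libraries were also known at that choice, so the calls, shares and ranks below are not independent of it. In p53+/+ cells all 9 genes fell, 3.34-fold (LTBR) to 8.94-fold (MKX), and in p53-/- cells 7 fell, 2.6-fold (CLCF1) to 5.02-fold (CYP24A1). ADGRF1 and MALL missed the threshold in p53-/- cells in this fit, which does not pair the replicates, and passed with the replicate number as a block. A gene was called where the adjusted p of limma, with the Benjamini-Hochberg method over all 12466 genes tested, was under 0.05. In p53+/+ cells 24.5% of all genes tested were called and 11.8% fell. For p53-/- cells 13.2% were called and 4.52% fell. At least a 2-fold fall on the log2 scale was rarer, with 1.06% of genes in p53+/+ cells, where all 9 passed it, and 0.257% in p53-/- cells, where 6 did. From the largest fall downward the 9 genes ranked between 2 (PDE4B) and 37 (ZBTB2) of 12466 in p53+/+ cells. The ranks in p53-/- cells lay between 1 (CYP24A1) and 199 (ADGRF1).

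**Figure D2:**
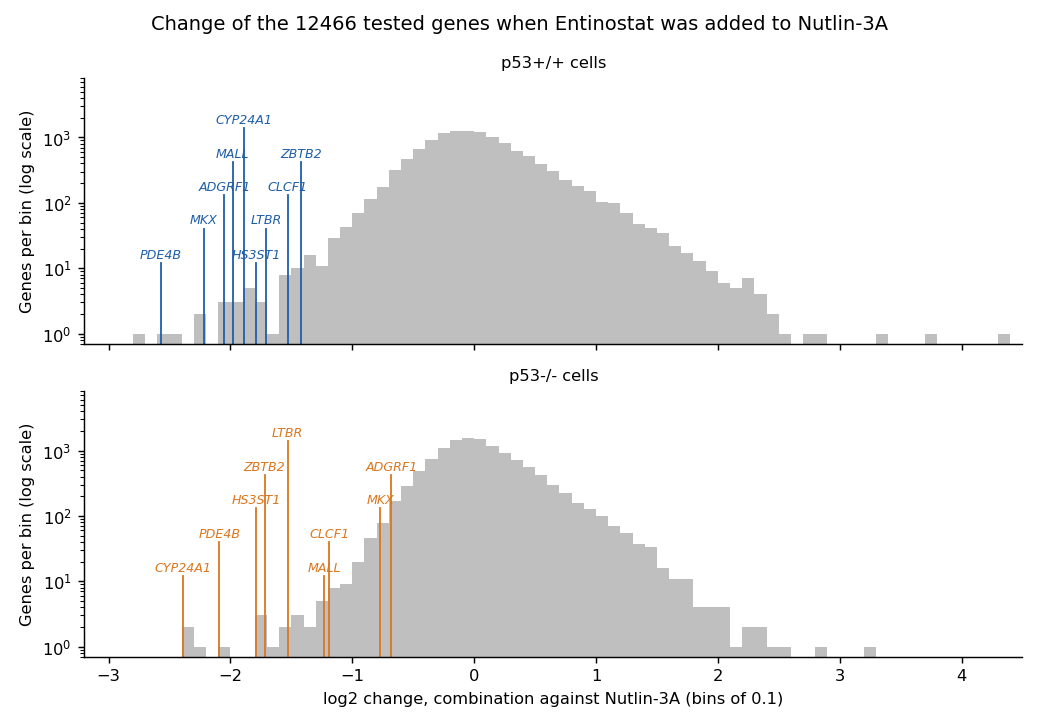
Number of genes (vertical axis, log scale) by log2 change from Nutlin-3A to the combination (horizontal axis, bins of 0.1) for the 12466 genes tested, p53+/+ above and p53-/- below, with a line at each of the 9 genes whose height carries no value. In p53+/+ cells all 9 lie at -1.42 or lower, and in p53-/- cells MKX (-0.77) and ADGRF1 (-0.68) lie at the edge of the main body of genes.

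Among the signalling genes, PDE4B is a phosphodiesterase that ends cyclic AMP signals. Its replicates measured 10.2 and 10.8 RPKM with Nutlin-3A and 0.901 and 1.97 with the combination in p53+/+ cells. The p53-/- replicates measured 12.1 and 12.4 and then 1.45 and 4.11. Libraries with the combination and with Nutlin-3A alone were far apart in both genotypes, and the 2 combination replicates differed more from each other than those with Nutlin-3A. The fall was 7.33-fold in p53+/+ cells (log2 change -2.57, SE 0.37, limma adjusted p = 0.0048) and 4.41-fold in p53-/- cells (-2.09, SE 0.37, adjusted p = 0.013). With DMSO the replicates of p53+/+ cells measured 8.23 and 8.61 RPKM and with Entinostat alone 0.676 and 1.8. The p53-/- replicates measured 12.4 and 11.6 with DMSO and 1.63 and 3.71 with Entinostat. The combination libraries thus overlapped those with Entinostat alone in each genotype.

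LTBR encodes the lymphotoxin beta receptor, a member of the tumor necrosis factor receptor family that activates non-canonical NF-kB. In p53+/+ cells its replicates measured 33.6 and 32.1 RPKM with DMSO, 40.1 and 37.1 with Nutlin-3A, 8.37 and 12.4 with Entinostat and 10.2 and 12.9 with the combination. Its p53-/- values were 33.7 and 30.2, 33.7 and 25.7, 8.2 and 11.6, and 8.59 and 11.3 in the same order. No library with Entinostat came near those without it. LTBR fell 3.34-fold when Entinostat was added to Nutlin-3A in p53+/+ cells (-1.71, SE 0.18, limma adjusted p = 0.0027) and 2.98-fold in p53-/- cells (-1.53, SE 0.18, adjusted p = 0.0058), with the smallest SE of the 9 genes.

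CLCF1, a cytokine that signals through the receptor subunit gp130, was among the lowest of the 9 genes in RPKM. In p53+/+ cells it measured 2.9 and 3.54 RPKM with DMSO, 3.31 and 4.61 with Nutlin-3A, 0.51 and 0.939 with Entinostat and 0.634 and 1.55 with the combination. The values of p53-/- cells were 3.73 and 4.27, 4.58 and 3.4, 0.786 and 1.79, and 0.982 and 2.08 in that order. The groups with and without Entinostat did not overlap, but replicate 2 kept more CLCF1 than replicate 1 under Entinostat. The fall from Nutlin-3A to the combination was 3.63-fold in p53+/+ cells (-1.53, SE 0.33, limma adjusted p = 0.014) and 2.6-fold in p53-/- cells (-1.19, SE 0.33, adjusted p = 0.047).

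CYP24A1, the hydroxylase that inactivates the hormonal form of vitamin D, varied most between replicates. Its p53+/+ libraries measured 20.3 and 36.8 RPKM with DMSO, 23.5 and 39.9 with Nutlin-3A, 4.69 and 11.5 with Entinostat and 4.87 and 12.6 with the combination. The p53-/- libraries measured 28.6 and 38.4, 30.5 and 41.0, 3.59 and 11.7, and 3.72 and 10.5. Replicate 2 was the higher of each pair, with Entinostat or without it. CYP24A1 fell 3.64-fold in p53+/+ cells (-1.89, SE 0.5, limma adjusted p = 0.027) and 5.02-fold in p53-/- cells (-2.39, SE 0.5, adjusted p = 0.02) when Entinostat was added to Nutlin-3A, and its SE was the largest of the 9.

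HS3ST1 encodes a sulfotransferase that modifies heparan sulfate chains and makes the binding site for antithrombin. In p53+/+ cells it measured 38.0 and 41.3 RPKM with DMSO, 43.8 and 42.7 with Nutlin-3A, 9.91 and 14.5 with Entinostat and 11 and 13.3 with the combination. For p53-/- cells the values were 61.2 and 53.1, 56.9 and 49.2, 10.6 and 19.4, and 12.1 and 18.4. The p53-/- libraries were the higher ones without Entinostat, and with it the genotypes overlapped. The log2 change from Nutlin-3A to the combination was -1.79 in each genotype (SE 0.19, limma adjusted p = 0.0027 in p53+/+ and 0.0054 in p53-/- cells), a 3.56-fold and a 3.48-fold fall.

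MALL, a membrane protein of the MAL family found in lipid rafts, had the highest mean RPKM of the 9 genes in every group. Its p53+/+ replicates measured 51.6 and 59.6 RPKM with DMSO, 46.1 and 51.7 with Nutlin-3A, 13.4 and 27.9 with Entinostat and 7.92 and 18.1 with the combination. Its p53-/- replicates measured 66.7 and 60.6, 62.0 and 60.7, 20.3 and 37.3, and 18.6 and 35.9. Libraries with and without Entinostat did not overlap in either genotype. MALL fell 3.76-fold in p53+/+ cells when Entinostat was added to Nutlin-3A (-1.98, SE 0.36, limma adjusted p = 0.0084). Its p53-/- mean was 2.25-fold lower (-1.23, 95% interval -2.05 to -0.41, adjusted p = 0.054), which missed the threshold. With the replicate number as a block in the fit that adjusted p was 0.0022.

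ADGRF1 encodes an adhesion G protein-coupled receptor. In p53+/+ cells it measured 12.8 and 15.9 RPKM with DMSO, 17.9 and 19.4 with Nutlin-3A, 2.41 and 4.74 with Entinostat and 2.59 and 6.46 with the combination. It was low in p53-/- cells throughout, with 1.34 and 2.02, 1.68 and 2.11, 0.66 and 1.32, and 0.742 and 1.28. Every p53-/- library lay below every p53+/+ library. The fall from Nutlin-3A to the combination was 4.12-fold in p53+/+ cells (-2.05, SE 0.33, limma adjusted p = 0.006). The p53-/- mean was 1.88-fold lower (-0.68, 95% interval -1.43 to 0.07, adjusted p = 0.19). The replicate block gave an adjusted p of 0.023. At such low RPKM the added 0.5 makes log2 changes understate the fold.

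MKX, the homeobox factor Mohawk known from tendon development, measured 4.6 and 5.59 RPKM with DMSO, 3.37 and 4.05 with Nutlin-3A, 0.519 and 0.845 with Entinostat and 0.264 and 0.567 with the combination in p53+/+ cells. Without p53 it measured 0.998 and 1.23, 0.803 and 1.26, 0.284 and 0.39, and 0.337 and 0.441. The p53-/- libraries without Entinostat lay well below those of p53+/+ cells, whereas under the combination the genotypes overlapped. MKX fell 8.94-fold in p53+/+ cells (-2.22, SE 0.22, limma adjusted p = 0.0027) and 2.65-fold in p53-/- cells (-0.77, SE 0.22, adjusted p = 0.048) when Entinostat was added to Nutlin-3A. Its mean over the 8 libraries with Entinostat or the combination was 0.456 RPKM, below the 0.5 RPKM required of a tested gene over all 16, so it was tested only through the libraries where it was higher. With no such filter its adjusted p was 0.023 in p53+/+ cells and 0.14 in p53-/- cells, where the call was lost.

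ZBTB2 encodes a zinc finger factor of the BTB class described as a repressor of genes in the p53 pathway. It was the one gene of the 9 whose libraries with Nutlin-3A lay far below those with DMSO. In p53+/+ cells it measured 6.5 and 8.07 RPKM with DMSO, 2.74 and 3.16 with Nutlin-3A, 1.32 and 2.0 with Entinostat and 0.489 and 1.17 with the combination. Levels were higher in p53-/- cells, with 11.4 and 13, 11.1 and 12.9, 2.49 and 4.56, and 2.21 and 4.79. Each treatment of p53+/+ cells thus gave a lower level than DMSO, and both combination libraries were below both Entinostat libraries, which no other gene of the 9 showed. The p53-/- libraries with Nutlin-3A overlapped those with DMSO. The fall when Entinostat was added to Nutlin-3A was 3.55-fold in p53+/+ cells (-1.42, SE 0.32, limma adjusted p = 0.016) and 3.42-fold in p53-/- cells (-1.72, SE 0.32, adjusted p = 0.015).

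**Figure D3:**
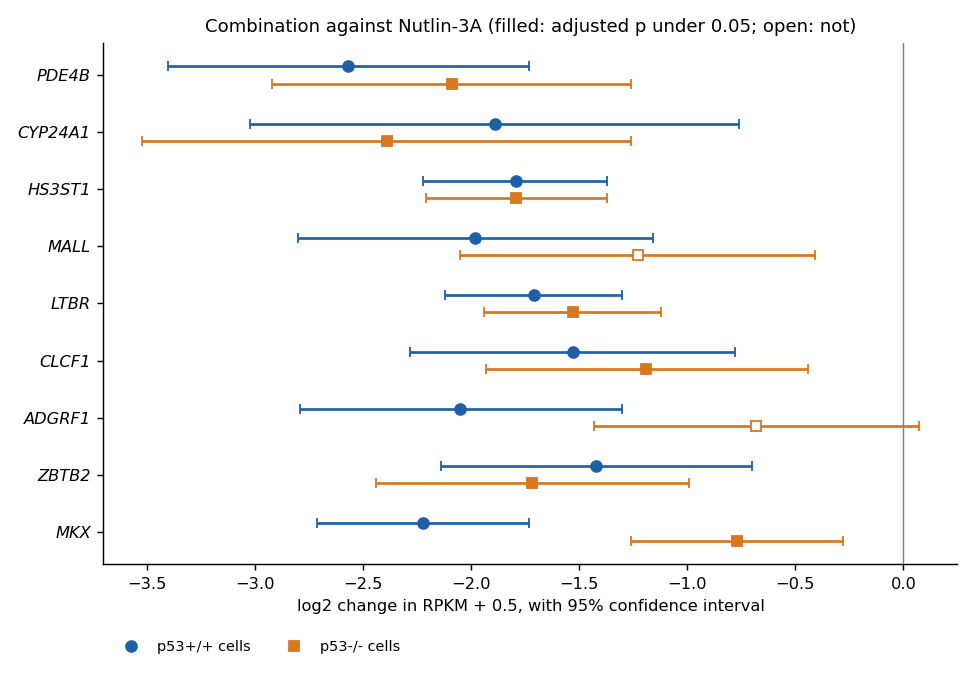
log2 change in RPKM + 0.5 (horizontal axis) from Nutlin-3A to the combination for each gene, with 95% confidence intervals, p53+/+ as blue circles and p53-/- as orange squares, filled where the limma adjusted p was under 0.05. The markers for MALL (-1.23) and ADGRF1 (-0.68) in p53-/- cells are open, and the genotypes lie farthest apart for MKX and ADGRF1.

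These calls rest on 2 replicates a group, and leaving out a library of either arm ended many of them. In p53+/+ cells HS3ST1, LTBR and MKX were called whichever of the 8 libraries was left out. Without Nutlin-3A replicate 1 the calls of PDE4B, CYP24A1, MALL, CLCF1, ADGRF1 and ZBTB2 were lost (limma adjusted p 0.05 to 0.084). Those of CYP24A1, MALL, CLCF1 and ZBTB2 were lost without Nutlin-3A replicate 2 (0.052 to 0.15), and those of CYP24A1, CLCF1 and ZBTB2 without combination replicate 1 (0.062 to 0.12). Of the 7 calls in p53-/- cells none was kept without Nutlin-3A replicate 1 (0.051 to 0.21) or 2 (0.05 to 0.24), and only that of HS3ST1 without combination replicate 1 (0.059 to 0.33 for the others). The calls there of MKX, without combination replicate 2 (0.074) or either p53+/+ Nutlin-3A replicate (0.077), and of CLCF1, without either of those 2 p53+/+ libraries (0.072), were lost as well. MALL passed in p53-/- cells without combination replicate 2 (0.026) or either p53+/+ combination replicate (0.0092), and ADGRF1 without either of the latter (0.031 and 0.032). Over all genes the count called in p53+/+ cells was 3054, and 39, 871 or 911 without Nutlin-3A replicate 1, Nutlin-3A replicate 2 or combination replicate 1. It was 1643 in p53-/- cells, and 2, 0 or 6 without the same libraries of that genotype, with 2855 genes at an unadjusted p under 0.05 where the count was 0. It was 904 and 902 without p53+/+ Nutlin-3A replicate 1 and 2. Leaving a library out also removes a residual degree of freedom and leaves an arm with a lone sample that is assumed to vary like the other groups. All 9 log2 changes stayed below 0 in both genotypes in all of these fits. With no filter on low values 5 of the 9 were called in p53+/+ cells (HS3ST1, LTBR, MKX, PDE4B and ADGRF1) and 1 in p53-/- cells (HS3ST1). With the replicate block the counts were 5282 and 3921, and all 9 genes were called in each genotype.

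Replicate 1 lost more of these genes than replicate 2. PDE4B under the combination was at 8.84% of its Nutlin-3A level in replicate 1 and at 18.2% in replicate 2 of p53+/+ cells, and at 12% and 33.1% in p53-/- cells. MALL was at 17.2% and 35.0%, and at 30.0% and 59.1%. CLCF1 showed the widest gap, with 21.5% and 61.2% in p53-/- cells. The fall was larger in replicate 1 for 9 of 9 genes in p53+/+ cells and for 8 of 9 in p53-/- cells, with MKX as the exception (42.0% and 35.1%). Entinostat against DMSO gave a larger fall in replicate 1 for 9 of 9 genes in each genotype by ratios of RPKM, but on the log2 scale MKX in p53-/- cells had -0.93 in replicate 1 and -0.95 in replicate 2. It was not particular to these genes, since among all genes at least 2-fold lower under the combination on the log2 scale the fall was larger in replicate 1 for 97.1% in p53+/+ and 94.6% in p53-/- cells. Over all genes tested the change in either direction was larger in replicate 1 for 72.6% and 68.4%. The RPKM of all genes summed to 371102 to 413745 in replicate 1 libraries and to 348800 to 366811 in replicate 2 libraries, and the part of this in the result was not tested.

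**Figure D4:**
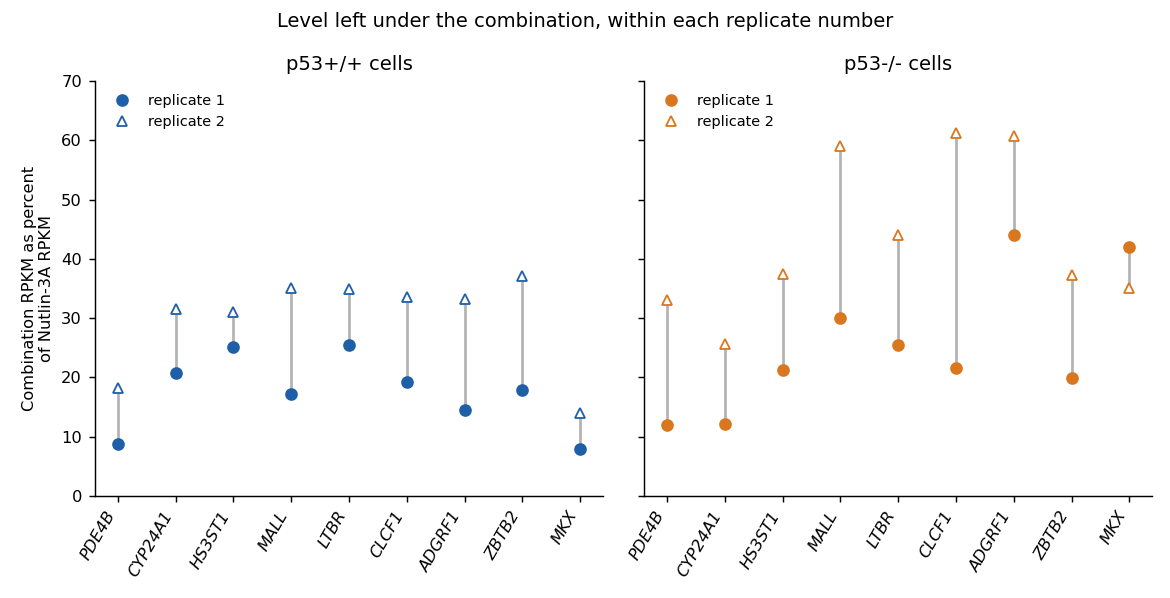
RPKM under the combination as a percent of the RPKM under Nutlin-3A (vertical axis) within replicate 1 (circles) and replicate 2 (triangles) for each gene, p53+/+ on the left and p53-/- on the right. Replicate 1 kept less in 9 of 9 genes on the left and in 8 of 9 on the right, MKX being the exception.

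The next comparison was whether the fall differed between genotypes. The MKX fall was smaller in p53-/- cells by 1.45 on the log2 scale (95% interval 0.75 to 2.14) and the ADGRF1 fall by 1.36 (0.3 to 2.42), but neither passed over all genes (limma adjusted p = 0.49 and 1). With the replicate block the MKX difference passed (adjusted p = 0.02) and that of ADGRF1 did not (0.077), and with the block in all 16 libraries both passed (0.002 and 0.037). ADGRF1 also passed without combination replicate 2 of p53+/+ cells (log2 difference 1.95, adjusted p = 0.047). For the other 7 genes the difference had an adjusted p of 1. Its interval was narrowest for LTBR (-0.4 to 0.76, estimate 0.18) and HS3ST1 (-0.59 to 0.6, estimate 0). It was wide for CYP24A1 (-2.1 to 1.1), ZBTB2 (-1.32 to 0.73), PDE4B (-0.7 to 1.66), MALL (-0.41 to 1.91) and CLCF1 (-0.71 to 1.41), and each of these intervals holds a difference of 1 in at least one direction. Over all 12466 genes limma called 0 (0%), with 498 at an unadjusted p under 0.05, and 42 with the replicate block. Leaving out combination replicate 1 or 2 of p53+/+ cells gave 2 and 16. MKX and ADGRF1 were the 2 genes that started from a much lower level in p53-/- cells. The added 0.5 compresses the changes of such low values, and its part in these 2 differences was not tested. The ADGRF1 difference was 1.28 with 0.1 added instead and 1.39 with 1 added. The log2 changes of MKX moved with the amount added. From Nutlin-3A to the combination its change in p53-/- cells was -0.77 with 0.5 added and -0.54 with 1. From DMSO to Entinostat its p53+/+ and p53-/- changes were -2.76 and -1.48 with 0.1 added, and -1.86 and -0.66 with 1. As ratios of mean RPKM the falls from Nutlin-3A to the combination were 8.94-fold and 2.65-fold for MKX and 4.12-fold and 1.88-fold for ADGRF1.

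Compared between genotypes at the same treatment, 3 of the 9 genes differed under Nutlin-3A and 2 under the combination. Over all genes 25.4% differed under Nutlin-3A (13.3% lower and 12.1% higher in p53-/- cells) and 27.1% under the combination (12% lower and 15.1% higher), so the members' share was near the background. Both comparisons use the same 8 libraries as the drug comparisons above. ADGRF1 was 9.83-fold lower in p53-/- cells under Nutlin-3A (1.9 against 18.6 RPKM, log2 difference -3, SE 0.33, limma adjusted p = 0.00044) and 4.47-fold lower under the combination (1.01 against 4.52, -1.64, SE 0.33, adjusted p = 0.0092). MKX was 3.6-fold lower under Nutlin-3A (1.03 against 3.71 RPKM, -1.47, SE 0.22, adjusted p = 0.0018). Under the combination its means were 0.389 and 0.415 RPKM (-0.02, 95% interval -0.51 to 0.47, adjusted p = 0.95). ZBTB2 went the other way and was 4.06-fold higher in p53-/- cells under Nutlin-3A (12 against 2.95 RPKM, 1.85, SE 0.32, adjusted p = 0.0037) and 4.21-fold higher under the combination (3.5 against 0.831, 1.56, SE 0.32, adjusted p = 0.0099).

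The other genes did not pass in the genotype comparison. Under Nutlin-3A their log2 differences ran from -0.38 (LTBR, adjusted p = 0.15) to 0.33 (MALL, adjusted p = 0.54). Under the combination MALL averaged 27.2 against 13 RPKM (1.08, adjusted p = 0.055) and PDE4B 2.78 against 1.44 (0.69, adjusted p = 0.19). Both passed with the replicate block (adjusted p = 0.0025 and 0.032), without combination replicate 2 of p53+/+ cells (0.0029 and 0.047) and without combination replicate 1 of p53-/- cells (0.032 and 0.026). In the blocked fit of all 16 libraries MALL passed (0.0054) and PDE4B did not (0.061). HS3ST1 passed without combination replicate 1 of p53-/- cells (log2 difference 0.59, adjusted p = 0.047). The calls of ADGRF1, MKX and ZBTB2 under Nutlin-3A held whichever of the 8 libraries was left out. Under the combination ADGRF1 was lost without p53-/- replicate 1 (0.051) and ZBTB2 without p53-/- replicate 2 (0.057). The counts over all genes were 3161 under Nutlin-3A and 3383 under the combination, and 5107 and 5473 with the replicate block. Without p53+/+ replicate 1 or 2 or p53-/- replicate 1 or 2 under Nutlin-3A the former was 1273, 1636, 2033 and 1391. Without combination replicate 1 of p53+/+ cells, or replicate 1 or 2 of p53-/- cells, the latter was 1397, 1950 and 1136.

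**Figure D5:**
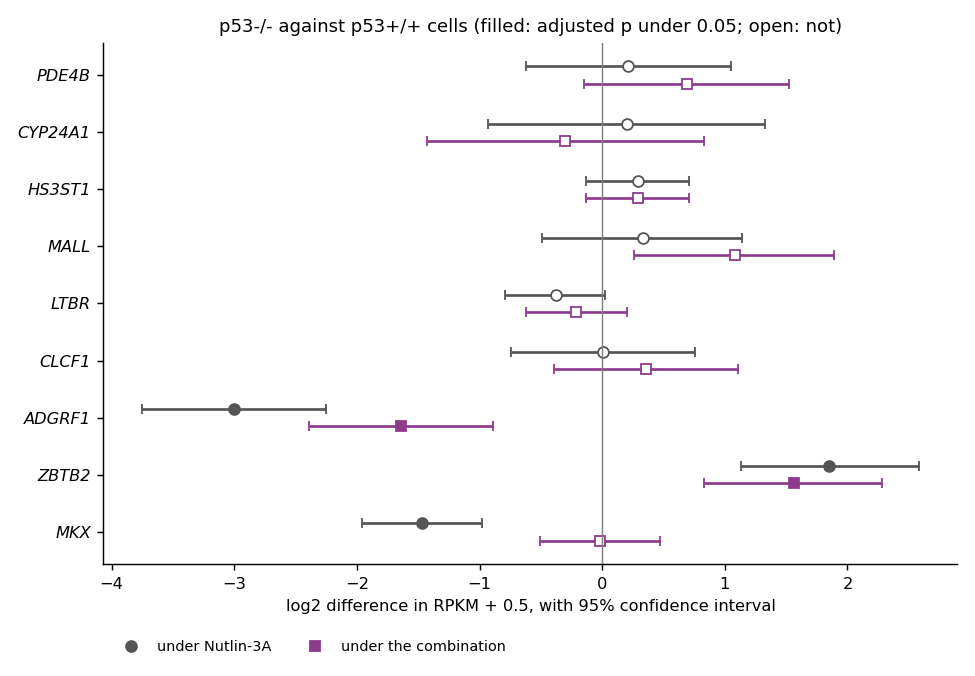
log2 difference of p53-/- minus p53+/+ cells in RPKM + 0.5 (horizontal axis) with 95% confidence intervals, under Nutlin-3A (grey circles) and under the combination (purple squares), filled where the limma adjusted p was under 0.05. ADGRF1 lies to the left and ZBTB2 to the right under both treatments, and MKX to the left under Nutlin-3A only, while at -0.02 under the combination.

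The remaining contrasts share libraries with the choice of genes and are given as levels. Under DMSO ADGRF1 was 8.53-fold lower in p53-/- cells (1.68 against 14.3 RPKM) and MKX 4.59-fold lower (1.11 against 5.1), and ZBTB2 was 1.67-fold higher (12.2 against 7.29). For ZBTB2 this ratio stood at 1.67 under DMSO and 4.06 under Nutlin-3A, and the change in it was not tested. In p53+/+ cells the mean of ZBTB2 was 2.47-fold lower with Nutlin-3A than with DMSO, which ranked 99 of 12466. The libraries of MKX also lay lower with Nutlin-3A there (1.37-fold), those of ADGRF1 (1.3-fold), PDE4B (1.25-fold), LTBR (1.18-fold) and HS3ST1 (1.09-fold) lay higher, and those of CYP24A1, MALL and CLCF1 overlapped. Without p53, the log2 differences of Nutlin-3A from DMSO ran from -0.12 (LTBR) to 0.15 (ADGRF1). The share of all genes that overlapped was not counted in either genotype. Whether the change with Nutlin-3A differed between genotypes was not tested. Against DMSO, the combination in p53+/+ cells left MKX at 8.14% of its level, ZBTB2 at 11.4% and PDE4B at 17.1%. On the log2 scale, by which genes were ranked, MKX, ZBTB2 and PDE4B had the 3 largest falls of all genes tested. The p53-/- cells kept these 3 at 35.0%, 28.7% and 23.1%. Ordered by mean RPKM under DMSO in p53+/+ cells, the genes ran MALL (55.6), HS3ST1 (39.7), LTBR (32.8), CYP24A1 (28.5), ADGRF1 (14.3), PDE4B (8.42), ZBTB2 (7.29), MKX (5.1) and CLCF1 (3.22). The replicates of LTBR and CYP24A1 overlapped, and those of the other neighbours in this order did not.

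Relatives of each gene, from lists written from general knowledge, moved in both directions. Across the 9 lists the median log2 change from Nutlin-3A to the combination was -0.2 to 0.32 in p53+/+ cells and -0.09 to 0.43 in p53-/- cells, where the medians over all genes were -0.02 and 0.02. Of all genes tested 11.8% fell and 12.7% rose in p53+/+ cells, and 4.52% fell and 8.66% rose in p53-/- cells, and the counts below stand beside these shares with no test of any list. Of 5 tested phosphodiesterases that act on cyclic AMP, none fell in either genotype and PDE2A rose in both (log2 change 1.62 and 1.09). Of 9 tested genes around the lymphotoxin receptor RELB (-0.83), a subunit of non-canonical NF-kB, and the adaptor TRAF3 (-0.54) fell in p53+/+ cells. BIRC3, a ubiquitin ligase of the same pathway, rose in both genotypes (0.95 and 1.14), and it was the only one of the 9 called in p53-/- cells. Among 11 partners, receptors and signalling genes of CLCF1, the cytokine LIF fell in both genotypes (-1.37 and -1.17) and its receptor subunit LIFR rose in both (1.15 and 1.19). JAK1 rose in p53+/+ cells (0.54).

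Among 5 tested genes of vitamin D metabolism, the hydroxylase CYP2R1 rose in both genotypes (1.1 and 0.95). The vitamin D receptor VDR rose in p53-/- cells (0.75) and its partner RXRA fell in p53+/+ cells (-0.42). Of 12 genes of heparan sulfate synthesis and editing 2 fell and 2 rose in p53+/+ cells, HS6ST2 (-1.14), NDST1 (-0.98), GLCE (0.79) and EXT1 (0.66). In p53-/- cells NDST1 fell (-0.7) and GLCE (0.72) and SULF2 (0.77) rose. Of 10 MAL, CMTM and caveolin genes CAV2 fell in both genotypes (-1.35 and -0.9) and CAV1 in p53+/+ cells (-1.03). PLLP rose in both (1.42 and 1.27) and MYADM in p53+/+ cells (0.4). Of 10 adhesion receptors ADGRG6 (-1.5) and ADGRA3 (-0.59) fell in p53+/+ cells, ADGRB2 (1.73 and 1.35) and ADGRA2 (0.99 and 1.01) rose in both genotypes, and 1 further receptor rose in p53+/+ cells.

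For the transcription factors, 7 of 33 tested BTB zinc finger genes fell and 2 rose in p53+/+ cells. In p53-/- cells 1 fell and 1 rose, and no BTB gene was called for the difference between genotypes. PATZ1 fell in both (-0.96 and -0.77), BCL6 rose in both (0.86 and 1.12), and ZBTB1 (-0.91) and ZBTB4 (-0.82) fell in p53+/+ cells. Of 10 homeobox genes of the TALE class, to which MKX belongs, 3 fell and 2 rose in p53+/+ cells and 3 fell in p53-/- cells. PBX2 (-0.92 and -0.68) and TGIF1 (-0.74 and -0.79) fell in both genotypes, IRX4 fell in p53-/- cells (-0.81), and PBX3 (1.04) and MEIS3 (0.77) rose in p53+/+ cells. None of the relatives named fell as far as the member of its own list in p53+/+ cells, but the members were chosen for large falls with Entinostat and the relatives were not. In p53-/- cells the log2 falls of IRX4 and TGIF1 were close to that of MKX (-0.77), and that of LIF to that of CLCF1 (-1.19). By the ratio of mean RPKM MKX fell more there (1.03 to 0.389) than IRX4 (8.83 to 4.83) or TGIF1 (19.9 to 11.5).

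Outside these lists, the genes most like each member were found by Pearson's r of log2(RPKM + 0.5) over the 16 libraries among genes with a mean of at least 1 RPKM. Since the libraries fall into those with and those without Entinostat, r ranks genes here and is no measure of a relation. The nearest were PCDH7 for PDE4B (0.987), TRIM7 and ARFGAP2 for LTBR (0.990 each), CHST3 for CLCF1 (0.977), DPH2 for CYP24A1 (0.979), FBRS for HS3ST1 (0.984) and ZMYND11 for MALL (0.981). For ADGRF1 it was EVPL (0.972), for ZBTB2 KCTD15 (0.989) and for MKX NR2F1 (0.955). KCTD15 had the order of ZBTB2 in p53+/+ cells, with means of 5.39, 2.93, 2.38 and 1.78 RPKM under DMSO, Nutlin-3A, Entinostat and the combination. Its p53-/- means were 7.53, 7.08, 3.26 and 3.32. NR2F1 likewise was lower in p53-/- cells, as MKX was, with 13.2 against 28.3 RPKM under DMSO.

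In RefSeq 3 of the 9 genes overlap another gene that has a row in the table, and the sources used here do not give the strand setting of the counting. SCNN1A, which overlaps LTBR, averaged 27.9 RPKM with Nutlin-3A and 20.5 with the combination in p53+/+ cells, and 10.8 and 10.5 in p53-/- cells. LOC100130987, at CLCF1, averaged 1.28 and 1.96, and 1.42 and 1.16. MKX-AS1, antisense to MKX, was at most 0.23 RPKM in any library. By these means none of the 3 was as much lower under the combination as the gene it overlaps.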

How the data were processed

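RNA of 16 libraries (8 groups of 2) was analysed from RPKM per gene, which the authors computed and deposited. Bowtie2, Partek and hg19 are named in the submitters' processing notes, without versions, and the sources used here do not give gene models, read filters or strand setting. Multiplied by its library's alignments and divided by the gene's smallest such value, 92.2% of 13428 low values (1887 genes, the smallest values left out) fell within 0.05 of a whole multiple.

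The 9 genes and the lists of relatives were chosen with earlier results of these data known. limma 3.58.1 in R 4.3.3 fitted 4 group means to log2(RPKM + 0.5) in the 8 libraries with Nutlin-3A or the combination, with an intensity trend, 4 residual and 5.01 prior degrees of freedom. The 12466 genes (60.5%) with a mean of at least 0.5 RPKM over the 16 libraries were tested. All 9 genes passed, of which 8, all but MKX, also reached it over the 8 libraries with Entinostat or the combination, and their lowest mean was 1.6 RPKM. p values were adjusted by the Benjamini-Hochberg method over all genes tested. On this scale changes of low genes are understated, so folds are ratios of mean RPKM. All 9 genes are named, up to 4 called genes per list by size of change, and the gene most like each. Fits were tested on simulated data.

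Replicate numbers come from the labels. Differences between replicates 1 and 2 correlated across genes in all 28 pairs of groups (r 0.275 to 0.778, median 0.425), so the numbers were taken to pair the samples. The main fit leaves this pairing out. The numbers were also fitted as a block, and those results are given for counts of genes and for genes whose call changed. The fits that left out a library did not use the block. Alternatives changed the pseudocount, filter, scaling, libraries fitted, variance prior and block, and left out each library.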

Additional observations from a re-analysis of the deposited data

How the results depend on the processing

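Entinostat added to Nutlin-3A called 3054 genes in p53+/+ cells, 1869 with no filter, 5282 with the replicate block and 6529 with the block and all 16 libraries. In p53-/- cells it called 1643 genes, 184 with no filter, 757 after quantile normalization, 2912 with all 16 libraries, 3921 with the block and 5141 with both. After median-of-ratios scaling the p53-/- calls split into 952 higher and 933 lower, against 1079 and 564. The difference between genotypes called 0 genes, 37 with no filter, 11 with all 16 libraries, 42 with the block and 109 with both. The genotype comparison called 3161 genes under Nutlin-3A, 5107 with the block and 6305 with both, and 3383 under the combination, 5473 with the block and 6591 with both. The cause of these shifts was not tested. Leaving out each library gave 39 to 3851, 0 to 2321, 0 to 16, 1273 to 3692 and 1136 to 4025 genes in the same order.

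Of the 9 genes, 9 were called in p53+/+ cells under every alternative that kept all libraries except no filter (5). In p53-/- cells 6 to 9 were called, and 1 with no filter. Under Nutlin-3A the same 3 genotype calls held under each, and under the combination 0 (no filter) to 4 (block) were called. The block in the 8 libraries added MALL and ADGRF1 in p53-/- cells, MKX for the difference between genotypes, and MALL and PDE4B under the combination. With all 16 libraries as well, ADGRF1 was added for the difference between genotypes (1.36, adjusted p = 0.037) and PDE4B was not called (0.061). The replicate block changed no other call of these genes. No direction of a called change reversed. Among differences that were not called, HS3ST1 between genotypes was 0 with a pseudocount of 1 and -0.01 after median-of-ratios scaling, and MKX under the combination was 0.14 after quantile normalization. Leaving out a library turned the sign of the difference in response for CLCF1 (-0.08 to 0.77), CYP24A1 (-1.19 to 0.19), HS3ST1 (-0.29 to 0.3), LTBR (-0.01 to 0.37), PDE4B (-0.14 to 1.1) and ZBTB2 (-0.78 to 0.19). It did so under Nutlin-3A for CLCF1 (-0.2 to 0.22) and CYP24A1 (-0.17 to 0.58), and under the combination for CLCF1 (-0.07 to 0.79), CYP24A1 (-0.99 to 0.4), HS3ST1 (0 to 0.59) and MKX (-0.27 to 0.22). PDE4B, CLCF1, ADGRF1, MKX and ZBTB2 were under 1 RPKM in some libraries, and how far depth limits their values was not tested.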
